A study of Homo sapiens with 21 samples.

Results

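The genes described here are the 5 members OAS1, OAS2, OAS3, OASL and ADAR, chosen by their symbols. They are 5 of the 16383 genes in the table, and all 5 passed the filter on low values (a normalised count of at least 10 in at least 3 libraries) that 11579 genes passed. The study sequenced RNA from IMR90 cells, a wild-type human lung fibroblast line in wide use, in 21 libraries of 7 groups with 3 libraries each. Proliferating cells were labelled as untreated, and the 6 other groups were irradiated to induce senescence, the lasting arrest that follows DNA damage. Every irradiated group also received 5 nM siRNA, first on day 4 and again on day 7 after irradiation, and RNA was taken on day 10. The non-targeting siRNAs of 2 groups, named #3 and #4 in the sample titles, serve as controls and are written NT3 and NT4. The remaining groups received siRNA against CCND1 (cyclin D1), CDK4, CDK6, or CDK4 and CDK6 together (dual knockdown). No group was irradiated without siRNA or transfected without irradiation, so a difference between controls and proliferating cells cannot be assigned to either. The radiation dose and the siRNA sequences were not given in the sources used here, and each target is named with 1 siRNA, so effects on other transcripts cannot be told apart from loss of the target.

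Cells detect long paired RNA as a sign of viral infection. OAS1, OAS2 and OAS3 are enzymes that bind such RNA and make short oligoadenylates that act as an antiviral signal inside the cell. OASL is a relative that has lost this enzyme activity and is known to assist the RNA sensor RIG-I. ADAR converts adenosine to inosine in paired RNA and so keeps the cell's own transcripts from being taken for foreign RNA, and its gene makes a longer protein from an interferon-inducible start and a shorter protein from constitutive starts. The OAS genes are classical targets of interferon, through factors that include STAT2 and IRF9, and interferon-stimulated genes are known to be expressed late in fibroblast senescence.

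In the GENCODE annotation of hg38, OAS1 (chr12:112905856-112933219), OAS3 (chr12:112938051-112976460) and OAS2 (chr12:112978395-113011723) lie side by side on the plus strand, with no other gene of the table between them. OASL lies elsewhere on the same chromosome (chr12:121017763-121039246, minus strand), and ADAR is on chr1:154581695-154628013, minus strand. RefSeq promoter windows (GRCh38.p14, 250 bases before to 50 after a start) matched 3 of the 5 members, OAS1 and OAS3 with 1 window each and ADAR with 3. The windows were searched on both strands for GAAANGAAA and GAAANNGAAA, the letters of the interferon response element that STAT2 and IRF9 take part in binding. Of 35116 RefSeq windows, 3.12% held GAAANGAAA, 3.57% held GAAANNGAAA and 6.4% held either. The 250 bases before the start are shown for the adjacent members whose levels are compared below, on the plus strand, 5′ to 3′, with the matches in capitals.
OAS1, chr12:112906712-112906961: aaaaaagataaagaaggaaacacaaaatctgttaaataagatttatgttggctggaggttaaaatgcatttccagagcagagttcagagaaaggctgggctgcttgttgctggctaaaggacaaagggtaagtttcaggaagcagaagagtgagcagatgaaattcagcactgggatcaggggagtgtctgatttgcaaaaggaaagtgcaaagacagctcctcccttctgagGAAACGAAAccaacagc
OAS3, chr12:112938224-112938473: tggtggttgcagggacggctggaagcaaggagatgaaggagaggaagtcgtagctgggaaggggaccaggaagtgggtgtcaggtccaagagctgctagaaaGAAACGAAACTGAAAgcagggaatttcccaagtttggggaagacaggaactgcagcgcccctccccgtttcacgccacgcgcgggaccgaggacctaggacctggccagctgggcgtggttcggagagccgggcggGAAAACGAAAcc
The OAS1 window held 1 match, GAAACGAAA, from 17 to 9 bases before the start. The OAS3 window held 3 matches, GAAACGAAA from 148 to 140 and GAAACTGAAA from 143 to 134 bases before the start, which overlap, and GAAAACGAAA from 12 to 3 bases before it. The 3 ADAR windows held neither motif, and whether any of them is the interferon-inducible start was not determined.

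The libraries held 12892442 to 21822152 reads assigned to the listed genes. Each target was low where its siRNA was used: CCND1 was at 11.8% of the control mean, CDK4 at 8.67% and CDK6 at 16.4% in the single knockdowns, and CDK4 at 9.41% and CDK6 at 20.6% in the dual knockdown. The other targets varied too. CDK6 averaged 5961 normalised counts after CDK4 knockdown against 4706 in controls, and CDK4 950 after CDK6 knockdown against 1248. CCND1 averaged 55354 after CDK6 and 55310 after dual knockdown, against 39197 ± 8712 (SD, n = 6) in controls. Their part in the results was not tested. All 8 fibroblast markers were high in every library, with COL1A1 between 186736 and 419002 normalised counts and LUM between 1393 and 3824. By limma 1 of the 8 was higher and 6 were lower in senescent controls than in proliferating cells (32.6% and 36.1% of all genes tested). Of the other lists, the lung epithelial gene SFTPC reached at most 3.64, the endothelial gene CDH5 3.28 and the pan-leukocyte gene PTPRC 8.90. The epithelial genes KRT18 (826 to 1995), KRT8 (261.5 to 412), KRT19 (144 to 563) and EPCAM (12.2 to 47.8) and the leukocyte gene CD68 (650.2 to 1588) were present throughout. Of the 4 epithelial markers tested by limma, 2 were higher and 2 lower in senescent controls (32.6% and 36.1% of all genes tested). In the dual knockdown 2 were higher and 0 lower (22.5% and 21.5%). The part of these markers in the results was not tested. The third NT3 library stood apart from its group, with a standard deviation of 0.34 for its log2 deviations from the group mean over the tested genes, against at most 0.26 in the other 20 libraries. It was also the library with the fewest reads. Nothing in the labels says that the 3 libraries of a group came from separate cultures, so p-values measure the spread between these libraries, which may be technical.

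OAS1, the smallest of the OAS enzymes, was nearly undetected in proliferating cells, where the 3 libraries held 1, 0 and 0 reads. NT3 libraries were at 563, 401 and 578 normalised counts and NT4 libraries at 236, 345 and 359.7. CDK4 knockdown libraries were at 342, 230.4 and 396. The 9 libraries of those 3 groups formed the upper range of OAS1, and no other library exceeded 140.4. CCND1 knockdown libraries were at 97.8, 104.6 and 140.4, CDK6 knockdown libraries at 57.0, 137 and 126, and dual knockdown libraries at 25.4, 45.9 and 21.02. Every dual knockdown library was below every CDK6 knockdown library and above every proliferating library. Of the 21 pairs of groups, 17 differed for OAS1 by limma at an adjusted p under 0.05, and in a single pair 11.6% to 67% of all genes tested differed. Neighbours in the order of means that did not differ were NT3 and CDK4 knockdown, CDK4 knockdown and NT4, and CCND1 and CDK6 knockdown.

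OAS2, whose enzyme carries more copies of the catalytic unit than OAS1, followed the same order of groups. Proliferating libraries were at 2.62, 0 and 3.54 normalised counts (3, 0 and 4 reads). NT3 libraries were at 1057, 770.4 and 938, NT4 libraries at 444, 654 and 609.8, and CDK4 knockdown libraries at 745, 489 and 759.7. The CCND1 knockdown (191, 206 and 292) and the CDK6 knockdown (93.6, 276 and 181) overlapped each other and lay below all control libraries. Dual knockdown libraries were close together at 75.1, 61.1 and 69.1. OAS2 also differed in 17 of the 21 pairs, a count that was 11 when a pseudocount of 0.1 was added in place of 1.

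OAS3 makes the longest oligoadenylate synthetase, and it was the OAS gene with a clear level before irradiation. Proliferating libraries were at 332, 362 and 329.5 normalised counts. NT3 libraries were at 1491, 1333 and 794, NT4 libraries at 967, 1417 and 1277, and CDK4 knockdown libraries at 1485, 1142 and 1331. The low NT3 value belongs to the library that stood apart. CCND1 knockdown libraries were at 602, 495 and 720.4, between the proliferating cells and the controls without overlap. CDK6 knockdown libraries, at 198, 451 and 333, straddled the proliferating range, and dual knockdown libraries, at 172, 212 and 109.1, all lay below it. OAS3 was thus the member whose lowest group was an irradiated group.

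OASL, the member without enzyme activity, was the lowest of the 5 in normalised counts in every irradiated group but not in proliferating cells, where OAS1 and OAS2 were lower. Its proliferating libraries were at 4.37, 2.13 and 4.43 normalised counts, or 12 reads in all. NT3 libraries were at 186, 128 and 195, NT4 libraries at 87.9, 110.9 and 132, and CDK4 knockdown libraries at 110.8, 87.3 and 101.1. CCND1 knockdown libraries (55.3, 77.9 and 84.4) all lay under the lowest control library. CDK6 knockdown libraries were at 22.4, 42.9 and 31.6 and dual knockdown libraries at 20.97, 22.9 and 13.0, and the highest dual library lay just above the lowest CDK6 library. For OASL, 15 of 21 pairs differed, and from NT3 down to the CCND1 knockdown no neighbouring groups in the order of means did.

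ADAR was abundant everywhere and moved least. Proliferating libraries were at 4579, 4966 and 4826 normalised counts. NT3 libraries were at 8031, 8195 and 6136, NT4 libraries at 7414, 7719 and 8215, and CDK4 knockdown libraries at 8278, 7388 and 7670.1. All irradiated libraries lay above all proliferating ones. CCND1 knockdown libraries (6072, 6216 and 6752), CDK6 knockdown libraries (5649, 6571 and 6588) and dual knockdown libraries (5497, 6188 and 5327) lay below all control libraries other than the third of NT3. Between neighbouring groups of ADAR only dual knockdown and proliferating cells differed, and 14 of 21 pairs differed in all. The counts are per gene, so the long and short forms of ADAR cannot be told apart.

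**Figure D1:**
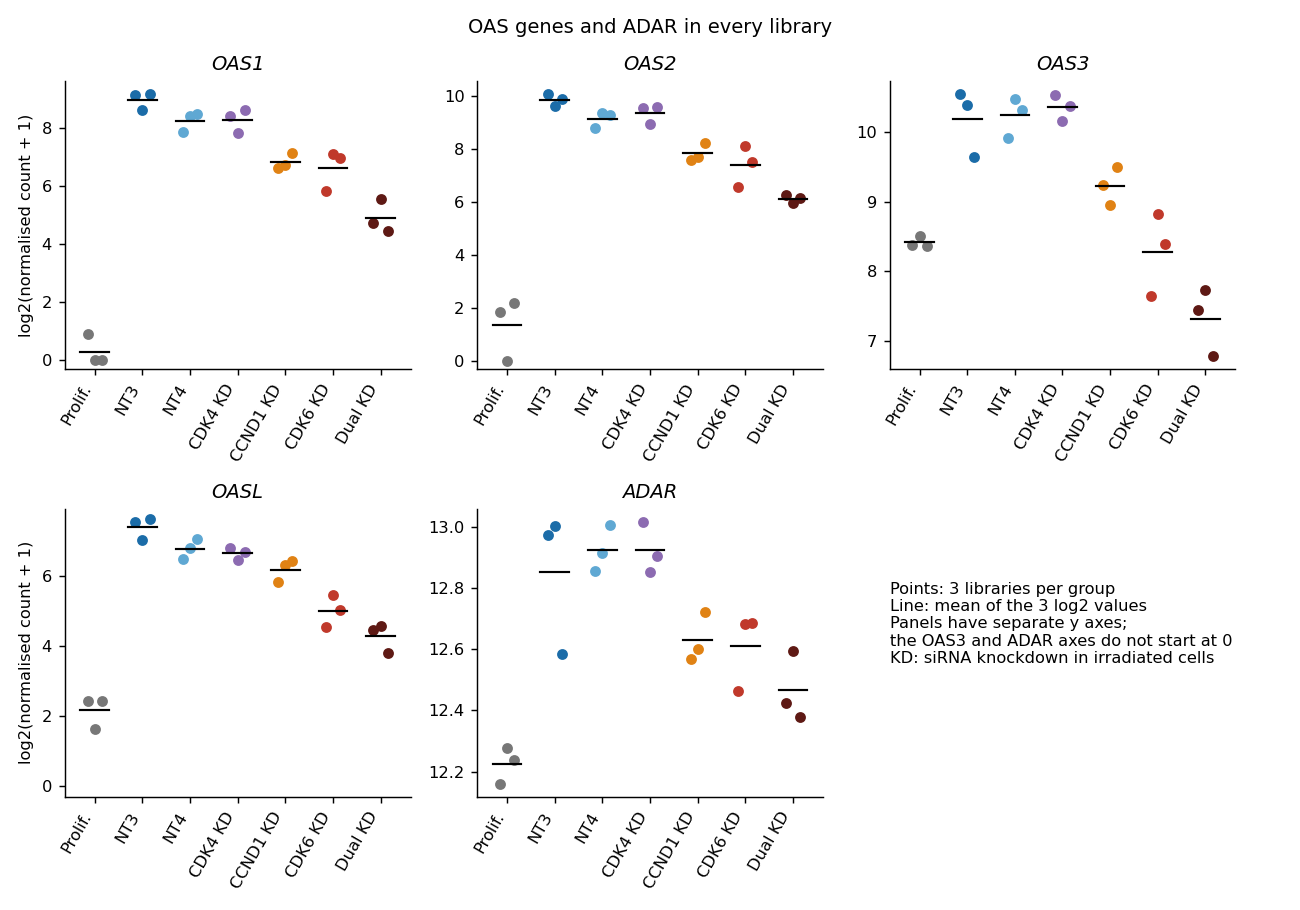
Each panel shows 1 gene, with log2(normalised count + 1) on the y axis and the 7 groups on the x axis; points are libraries and lines are means of 3 log2 values, and the y axes differ. The 4 OAS genes are high in NT3, NT4 and CDK4 knockdown and lower in CCND1, CDK6 and dual knockdown, and OAS3 in the dual knockdown (109.1 to 212) lies below its proliferating range (329.5 to 362).

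All 5 members were higher in the senescent controls than in proliferating cells, and no control library overlapped a proliferating one for any of them. OAS1 rose from a mean of 0.291 ± 0.504 (SD, n = 3) to 414 ± 133 normalised counts (SD, n = 6). OAS2 rose from 2.05 ± 1.84 to 746 ± 225, and OASL from 3.64 ± 1.31 to 140.04 ± 42.3. OAS3 rose from 341 ± 18.0 to 1213 ± 273 and ADAR from 4790.2 ± 196 to 7618 ± 788. In normalised counts ADAR and OAS3, the 2 genes already expressed before irradiation, gained the most. As fold changes they changed least. The log2 fold changes of log2(normalised count + 1) were 8.33 ± 0.28 (SE) for OAS1, 8.14 ± 0.34 for OAS2, 4.92 ± 0.24 for OASL, 1.79 ± 0.22 for OAS3 and 0.66 ± 0.08 for ADAR. The limma adjusted p-values were 2.28e-16, 7.47e-15, 6.95e-14, 3.57e-07 and 1.53e-07 in that order. Of all genes tested, 32.6% were higher in this comparison. The median change was 4.92 over the members and -0.03 over all genes tested. These are bulk libraries, in which fewer cells expressing a gene and less RNA per cell cannot be told apart.

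The size of the OAS1, OAS2 and OASL rises rests on few proliferating reads. The controls held 2523 reads of OAS1 against 1, a ratio of pooled reads, each pool scaled by its summed size factors, of 1316 with a 95% counting interval from 236 to 51985. For OAS2 the ratio was 341 (interval 166 to 849, 4582 against 7 reads), and for OASL 37.0 (interval 21.1 to 71.9, 851 against 12 reads). These intervals cover counting error only. The log2 changes depended on the pseudocount: OAS1 was at 10.85 with 0.1 and 5.30 with 10, OAS2 at 9.49 and 5.93, and OASL at 5.24 and 3.42. Summed endothelial markers moved in the same direction, from 7.09 to 9.61 normalised counts in proliferating libraries to 35.0 to 48.2 in controls and 16.0 to 18.8 in the dual knockdown. KDR went from a mean of 0.646 to 12.4 in controls and 0.702 in the dual knockdown (log2 changes of 3.06 and -3.02, both called by limma). VWF rose by 2.07 in controls and did not pass in the dual knockdown (-0.53, adjusted p = 0.13), and CDH5 was at most 3.28 in any library. Of the 7 leukocyte markers, CD14 had a mean of 3.76 in proliferating cells, 27.4 in controls and 13.9 in the dual knockdown, ITGAM 0, 7.50 and 1.33, and PTPRC 0, 4.76 and 1.76. Their sum, mostly CD68, was 654 to 688 in proliferating libraries, 894 to 1423 in controls and 936 to 1010.04 in the dual knockdown, and the part of either marker list in the results was not tested.

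The 2 control siRNAs were compared with each other because all knockdowns are set against their mean. None of the 5 members differed between NT4 and NT3 by limma, where 27.8% of all genes tested did. OAS1 and OAS2 were lower in every NT4 library than in every NT3 library, and the share of all genes so separated was not counted. The log2 differences were -0.72 ± 0.33 (SE, adjusted p = 0.107) for OAS1, -0.70 ± 0.40 (0.195) for OAS2 and -0.62 ± 0.28 (0.101) for OASL. Their 95% intervals reached from -1.39 to -0.04, from -1.53 to 0.12 and from -1.19 to -0.04. OAS3 differed by 0.05 ± 0.26 and ADAR by 0.07 ± 0.09, both reversing without the third NT3 library (-0.23 and -0.06). At an unadjusted p under 0.05 limma counted 2 members (OAS1 and OASL), and the share of all genes at this looser cutoff was not counted. On recovered reads edgeR called 3 (OAS1, OAS2 and OASL) and DESeq2 called 2 (OAS1 and OASL). The number of all genes called by edgeR is given in the closing section, and that of DESeq2 is not reported here.

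CDK4 knockdown left every member within the range of the controls or overlapping it. OAS1 averaged 323 ± 84.2 normalised counts (SD, n = 3), OAS2 665 ± 152, OAS3 1319 ± 172, OASL 99.7 ± 11.8 and ADAR 7779 ± 455. The log2 changes against the mean of both controls were -0.33 (95% interval -0.91 to 0.26), -0.14 (-0.85 to 0.58), 0.15 (-0.32 to 0.61), -0.44 (-0.93 to 0.06) and 0.04 (-0.13 to 0.20) in that order. By limma 0 of the 5 passed, as did 0 at an unadjusted p under 0.05 and 0 with edgeR and with DESeq2, while 16% of all genes tested passed by limma. The values depended on the control. Against NT3 alone OAS1 was at -0.69 (95% interval -1.36 to -0.01, adjusted p = 0.128), OAS2 at -0.49 (0.394) and OASL at -0.75 (-1.32 to -0.17, 0.0509). Every CDK4 library was below every NT3 library for these 3 genes, and the share of all genes so separated was not counted. Against NT4 alone OAS1 was at 0.03, OAS2 at 0.21, OASL at -0.13 and ADAR at -0.0011, and the libraries overlapped. The intervals leave room for changes of the sizes they span.

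CCND1 knockdown lowered all 5 members. OAS1 fell to 114 ± 22.9 normalised counts (SD, n = 3), 27.6% of the control mean, and OAS2 to 229.9 ± 54.6, 30.8% of it. OAS3 fell to 606 ± 113 (49.9%), OASL to 72.5 ± 15.3 (51.8%) and ADAR to 6347 ± 358 (83.3%). The 4 OAS genes did not overlap the 6 control libraries, and ADAR did. The log2 changes were -1.80 ± 0.28 (SE), -1.66 ± 0.34, -0.98 ± 0.22, -0.91 ± 0.24 and -0.26 ± 0.08, with limma adjusted p-values of 5.57e-05, 0.000906, 0.00218, 0.00623 and 0.016. Of all genes tested, 14.4% were lower. The calls of OASL and ADAR did not hold in every setting. OASL was at -0.60 against NT4 alone (adjusted p = 0.138), at -1.22 against NT3 alone (0.00155) and at -0.73 without the first CCND1 library (0.059). ADAR lost its call with NT3 as the sole control (0.0588), in a fit limited to these 3 groups (0.0703) and without the first (0.0832) or second (0.0665) CCND1 library, and OAS2 with a pseudocount of 0.1 (0.0666).

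CDK6 knockdown lowered all 5 members, the 4 OAS genes each to about the same share of the controls. OAS1 fell to 106.5 ± 43.2 normalised counts (SD, n = 3), 25.8% of the control mean, OAS2 to 184 ± 91.1 (24.6%), OAS3 to 328 ± 126 (27.0%) and OASL to 32.3 ± 10.3 (23.1%). ADAR fell to 6269 ± 537 (82.3%). The log2 changes were -1.98 ± 0.28 (SE, adjusted p = 8.8e-06), -2.09 ± 0.34 (4.75e-05), -1.93 ± 0.22 (6.45e-07), -2.08 ± 0.24 (5.29e-07) and -0.28 ± 0.08 (0.00704) by limma. The OAS genes lay below all 6 control libraries, and 20.8% of all genes tested were lower. Against NT3 and NT4 separately OAS1 was at -2.34 and -1.62, OAS2 at -2.44 and -1.74 and OASL at -2.38 and -1.77, all called. The first CDK6 library had the lowest value of its group for each member, at 57.0 for OAS1 and 5649 for ADAR. Without it the change of ADAR was -0.20 (adjusted p = 0.0775) and the OAS genes were between -1.58 and -1.84.

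The dual knockdown had the lowest levels of all 5 members among irradiated cells. OAS1 fell to 30.8 ± 13.3 normalised counts (SD, n = 3), 7.44% of the control mean, and OAS2 to 68.4 ± 6.98 (9.18%). OAS3 fell to 164 ± 51.8 and OASL to 18.97 ± 5.25, both 13.5% of the control mean, and ADAR to 5670 ± 456 (74.4%). The log2 changes were -3.72 ± 0.28 (SE), -3.37 ± 0.34, -2.89 ± 0.22, -2.80 ± 0.24 and -0.42 ± 0.08. Their limma adjusted p-values were 7.98e-10, 6.96e-08, 1.13e-09, 4.59e-09 and 0.000167, and 21.5% of all genes tested were lower. All 5 calls held without each library of the compared groups in turn. Fibroblast markers moved as well: 6 of 8 were higher and 0 lower in the dual knockdown, where 22.5% of all genes tested were higher, with summed levels of 676296 to 860205 normalised counts against 448921 to 556835 in the controls, and their part in the result was not tested.

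**Figure D2:**
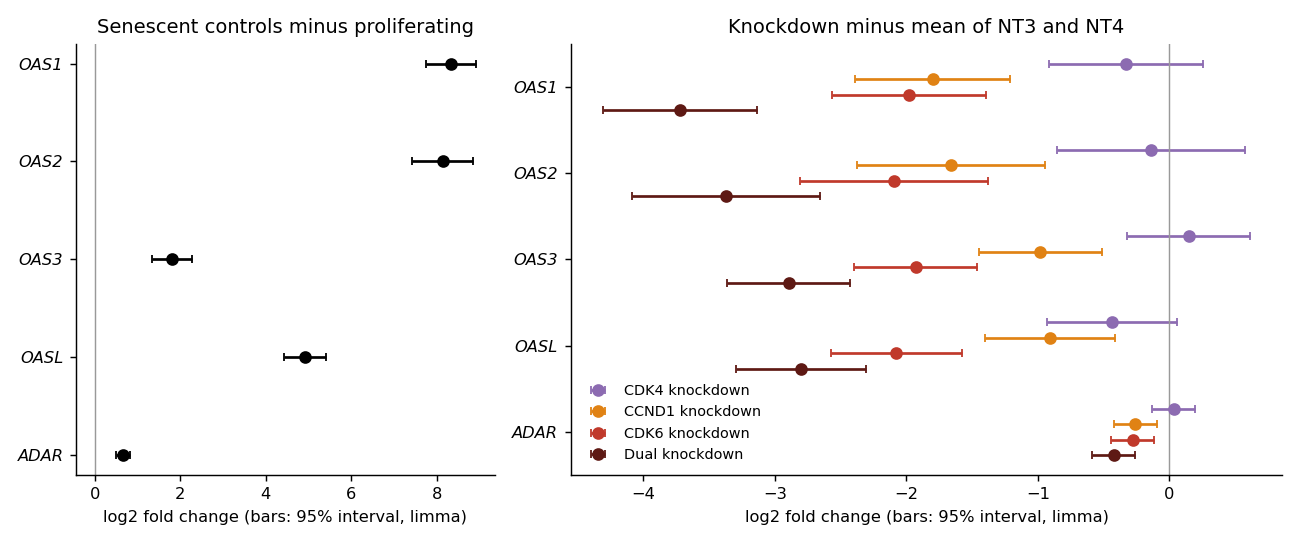
Points are log2 fold changes of log2(normalised count + 1) from limma and bars their 95% intervals, for the senescent controls against proliferating cells (left) and each knockdown against the mean of NT3 and NT4 (right). The CDK4 knockdown intervals include 0 for all 5 genes, and the dual knockdown values run from -3.72 for OAS1 to -0.42 for ADAR.

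A separate test asked whether the dual level equals what the 2 single effects give when their log2 changes are added. All 5 departures were negative, that is, the dual level was lower than this sum. The median departure over all genes tested was -0.0026, and the share of genes with a negative departure was not counted. In limma 0 of 5 passed the adjusted threshold, where 6.35% of all genes tested did. OAS1 departed by -1.41 ± 0.43 (SE, adjusted p = 0.0542), OAS3 by -1.11 ± 0.34 (0.0569) and OAS2 by -1.15 ± 0.53 (0.213). OASL departed by -0.29 ± 0.36 (0.693) and ADAR by -0.18 ± 0.12 (0.409). At an unadjusted limma p under 0.05, 3 members passed (OAS1, OAS2 and OAS3), and the share of all genes at this looser cutoff was not counted. On recovered reads edgeR called these same 3 and DESeq2 called OAS1 and OAS2. The edgeR total over all genes is given in the closing section, and the DESeq2 total is not reported here. OAS1 and OAS3 lay close to the threshold, and leaving out 1 library moved them to either side of it. Without the third NT3 library their adjusted p-values were 0.0211 and 0.0248, and with runs of library codes as a block, chosen after seeing the data, 0.0466 and 0.0407. The departure used the same control libraries as the single effects. The dual group is listed at 5 nM siRNA like the single knockdowns, and whether this is the total or the amount of each siRNA was not resolved here.

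The knockdowns were next compared with each other, which needs no control library. Each member was lower after CDK6 than after CDK4 knockdown, with no overlap between libraries, a separation not counted over all genes. The log2 differences were -1.65 ± 0.33 (SE, limma adjusted p = 0.000407) for OAS1, -1.96 ± 0.40 (0.000544) for OAS2, -2.08 ± 0.26 (1.92e-06) for OAS3, -1.64 ± 0.28 (7.31e-05) for OASL and -0.31 ± 0.09 (0.00979) for ADAR. Of all genes tested, 17.3% were lower in this comparison. Adding CDK4 siRNA to CDK6 siRNA went with a further fall in 3 of 5 members, where 6.94% of genes were lower. These were OAS1 (-1.74 ± 0.33, adjusted p = 0.00086), OAS2 (-1.28 ± 0.40, 0.0355) and OAS3 (-0.96 ± 0.26, 0.0157), whose libraries overlapped. OASL (-0.73, 95% interval -1.30 to -0.16, adjusted p = 0.0869) and ADAR (-0.14, -0.33 to 0.04, 0.328) did not pass. CDK4 knockdown alone had moved none of the 5 past the threshold.

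Between CCND1 and CDK6 knockdown, OAS3 and OASL differed. OAS3 was higher after CCND1 than after CDK6 knockdown by 0.95 ± 0.26 on the log2 scale (limma adjusted p = 0.0187), and OASL by 1.17 ± 0.28 (0.00647), both without overlap. OAS1 (0.18, 95% interval -0.50 to 0.86), OAS2 (0.43, -0.39 to 1.26) and ADAR (0.02, -0.17 to 0.21) did not pass. The 2 members higher are set against 6.78% of all genes tested. Against the dual knockdown, 4 members were higher after CCND1 knockdown by 1.71 to 1.92, ADAR being the exception (0.16, adjusted p = 0.226), where 11.2% of genes were higher. Against CDK4 knockdown, 4 members were lower after CCND1 knockdown and OASL was not (-0.47, adjusted p = 0.239), where 10.7% of genes were lower.

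OAS3 parted from the other members when the knockdowns were set against proliferating cells. In the dual knockdown it was at 164 ± 51.8 normalised counts against 341 ± 18.0 (SD, n = 3 each), a log2 difference of -1.10 ± 0.26 (SE, limma adjusted p = 0.00084). It stayed lower in all settings tried, between -0.83 and -1.31, with adjusted p-values up to 0.0105. OAS1, OAS2, OASL and ADAR were higher in the dual knockdown than in proliferating cells by 4.61, 4.77, 2.112 and 0.24 (ADAR adjusted p = 0.0241). In that comparison 32.7% of all genes tested were higher and 32.9% lower. After CDK6 knockdown OAS3 did not differ from proliferating cells (-0.13, 95% interval -0.67 to 0.40, adjusted p = 0.662), while the 4 others were higher by 0.39 to 6.35 and 32.6% of genes were higher. After CCND1 knockdown all 5 were higher, OAS3 by 0.81 (adjusted p = 0.00959), where 31.3% of genes were higher.

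The same values can be read as the share of the senescent rise that each knockdown kept, with the proliferating mean at 0% and the mean of the 6 control libraries at 100%. These shares are descriptive and carry no test. CDK6 knockdown kept 25.7 ± 10.5% (SD, n = 3) of the rise of OAS1, 24.4 ± 12.3% of OAS2, 21.003 ± 7.52% of OASL and -1.54 ± 14.5% of OAS3. The dual knockdown kept 7.37 ± 3.21%, 8.93 ± 0.94%, 11.2 ± 3.85% and -20.3 ± 5.94% of the same genes, the negative value of OAS3 again standing for a level below proliferating cells. CCND1 knockdown kept 27.6 ± 5.53% of OAS1, 30.7 ± 7.35% of OAS2, 30.4 ± 12.9% of OAS3 and 50.5 ± 11.2% of OASL. ADAR kept 55.0 ± 12.7%, 52.3 ± 19.003% and 31.1 ± 16.1% after CCND1, CDK6 and dual knockdown. CDK4 knockdown kept between 70.4% (OASL) and 112.2% (OAS3). With NT4 alone as the reference these CDK4 shares were 90.2% for OASL, 102.9% for OAS1 and 116.8% for OAS2.

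**Figure D3:**
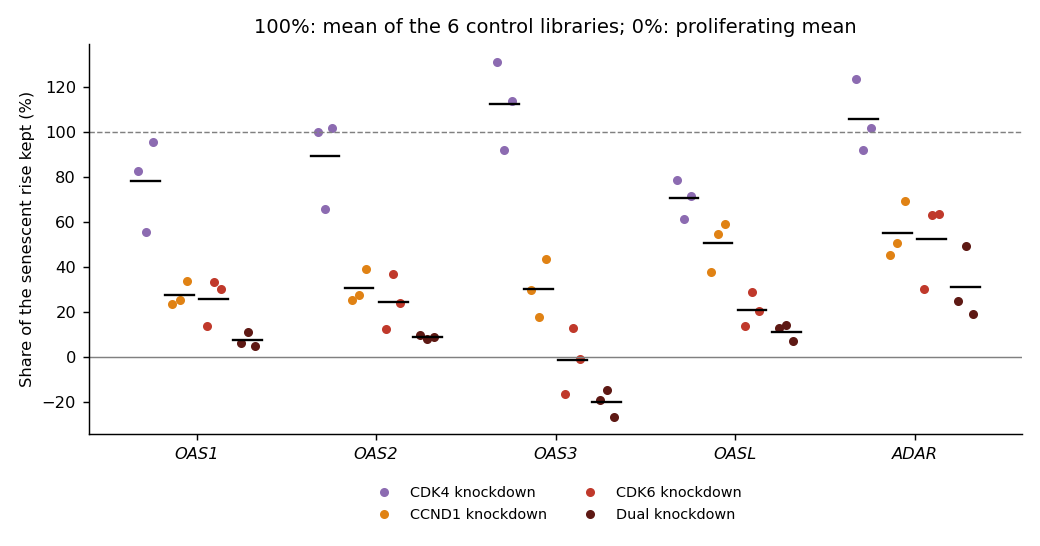
The y axis gives the share of the senescent rise kept in percent for each knockdown library (points) with the group mean (line), from normalised counts; 0% is the proliferating mean and 100% the mean of the 6 control libraries. All dual knockdown libraries of OAS3 lie below 0%, at -14.8 to -26.6%, and those of the 3 other OAS genes between 5.02% and 14.1%.

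Levels of different genes can be compared only per length. Per kilobase of the MANE transcript, the reference transcript of each gene, the control libraries averaged 254 ± 81.6 normalised counts (SD, n = 6) for OAS1, 161 ± 48.6 for OAS2, 184 ± 41.4 for OAS3, 42.8 ± 12.9 for OASL and 1153 ± 119 for ADAR. ADAR was thus the most and OASL the least abundant member on this scale. The place of OAS1 depended on the length used, since per kilobase of all its annotated exons it was at 31.8, below OAS2 (66.4) and OAS3 (67.2). In proliferating cells OAS3 was at 51.7 ± 2.73 per kilobase of MANE transcript, against 0.179 for OAS1, 0.444 for OAS2 and 1.11 for OASL. The isoforms in these cells were not measured.

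Within a library, the proportion of OAS2 to OAS1 varied less in each other irradiated group than in the dual knockdown. Between CDK6 knockdown libraries it still ran from 1.44 to 2.01. The ratio of OAS2 to OAS1 normalised counts averaged 1.81 ± 0.16 in NT3, 1.83 ± 0.11 in NT4, 2.07 ± 0.14 in CDK4, 2.003 ± 0.07 in CCND1 and 1.7 ± 0.29 in CDK6 knockdown (SD, n = 3 each). In the dual knockdown, where OAS1 had 86 reads in all, it ranged from 1.33 to 3.29. The ratio of OASL to OAS1 was between 0.32 and 0.35 on average in NT3, NT4, CDK4 and CDK6 knockdown, and 0.64 ± 0.10 in CCND1 and 0.65 ± 0.17 in dual knockdown. ADAR stood at 14.1 ± 0.51 times OAS3 in proliferating cells, 6.42 ± 1.2 times in NT3 and 36.7 ± 10.6 times in the dual knockdown. No test was made of these ratios, and genes of 1 library share its depth.

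Likeness of pattern was measured as the root mean square difference between the 7 group means of log2(normalised count + 1), each gene centred on its own mean. OAS1 and OAS2 were each other's nearest gene of all tested, at 0.14, and the next for both were RSAD2, IFI44L, CXCL10 and C3. OASL was nearest to HERC5 (0.19), IFI44 (0.27) and HERC6 (0.30), then PTGS2 and SERPINB2. OAS3 had no gene as near, its nearest being TNFAIP6 (0.32), IL1RL1, IRF7, APOL4 and IL24 (0.43). OAS3 differed from its chromosomal neighbour OAS1 by 2.2 and from OAS2 by 2.15. The proliferating group weighs heavily in these 2 distances. Its mean log2 values were 0.30 for OAS1, 1.35 for OAS2 and 8.42 for OAS3. Distances over the irradiated groups alone were not computed, so these values do not say that the genes responded differently to the knockdowns. ADAR was nearest to ADGRE5 (0.06), LRIF1, TUT7, ERV3-1 and ALOX12 (0.08), genes that also changed little. The median over all tested genes was 2.78 for OAS1, 1.13 for OAS3 and 0.35 for ADAR. These distances are descriptions over 7 group means that share libraries.

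The genes next to the members on the chromosome moved in both directions. Of 18 neighbours, the 3 listed genes on each side of the OAS1-OAS3-OAS2 locus, of OASL and of ADAR, 13 were tested. In senescent controls 3 were higher and 7 lower than in proliferating cells, against 32.6% and 36.1% of all genes tested. In the dual knockdown 5 were higher and 1 lower than in controls (22.5% and 21.5% of all genes), and after CDK6 knockdown 3 were higher and 1 lower (21.1% and 20.8%). PTPN11, a phosphatase gene beside the OAS locus, was at 0.00 ± 0.08 on the log2 scale in senescent controls (limma adjusted p = 0.983) and rose by 0.33 ± 0.08 in the dual knockdown (0.00163). That rise was 0.52 against NT3 and 0.14 against NT4 (adjusted p = 0.228), which differed from NT3 by 0.37 ± 0.09 (0.00349). CAMKK2, a kinase gene near OASL, rose by 0.54 ± 0.05 in the dual knockdown (1.39e-08), and SPPL3 fell by 0.51 ± 0.05 (8.72e-08). CAMKK2 averaged 694 ± 22.6 normalised counts in NT3, 891 ± 30.5 in NT4 and 1146 ± 24.7 in the dual knockdown. SPPL3 averaged 899 ± 54.8 in the controls and 632 ± 38.2 in the dual knockdown. After CDK4 knockdown alone, which moved no OAS gene past the threshold, SPPL3 averaged 553 ± 16.8.

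ADARB1, the other active editing enzyme of paired RNA, moved opposite to ADAR in senescence. It fell from 2733 ± 47.7 normalised counts in proliferating cells to 624 ± 114 in controls, by 2.15 ± 0.08 on the log2 scale (limma adjusted p = 5.36e-16). It fell further in the dual knockdown, to 421 ± 43.5 (-0.55 ± 0.08, 4.8e-06). After CDK6 knockdown it was at 517 ± 2.64 (-0.25 ± 0.08, 0.0111), a call not held against NT4 alone (-0.05, 0.686). NT4 itself was lower than NT3 by 0.40 ± 0.09 (0.00203). Of the 4 tested deaminases beside ADAR, 2 were lower and 0 higher in senescent controls (36.1% and 32.6% of all genes tested), and 2 lower and 1 higher in the dual knockdown (21.5% and 22.5%).

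Sensors of foreign RNA and DNA were mixed in senescence and mostly lower in the dual knockdown. Of 11 sensors and adaptors named, 10 were in the table and 9 were tested. Of these 9, 5 were higher in senescent controls (32.6% of all genes) and 4 lower (36.1%). The rises were in EIF2AK2, RIGI, IFIH1, DHX58 and TLR3, and the falls in MAVS, PRKRA, DHX9 and CGAS. IFIH1, the sensor MDA5, rose from 81.1 ± 29.5 normalised counts to 467 ± 75.6 and was at 106.7 ± 24.8 in the dual knockdown. RIGI, the sensor RIG-I, rose from 430.1 ± 8.30 to 1673 ± 129 and was at 933 ± 90.7 in the dual knockdown. EIF2AK2, the kinase PKR, rose from 1025 ± 85.8 to 2031 ± 311 and was at 1091 ± 158 there. Each of these 3 lay between its proliferating and control means in the dual knockdown. The dual knockdown lowered 7 of the 9, CDK6 knockdown 5 and CCND1 knockdown 4, against 21.5%, 20.8% and 14.4% of all genes tested. MAVS, the adaptor of RIG-I and MDA5, rose after CDK6 knockdown (0.44 ± 0.08, adjusted p = 8.35e-05), the only one raised by these 3 knockdowns. CDK6 calls of EIF2AK2 (adjusted p = 0.102) and RIGI (0.0727) were lost without the first CDK6 library.

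**Figure D4:**
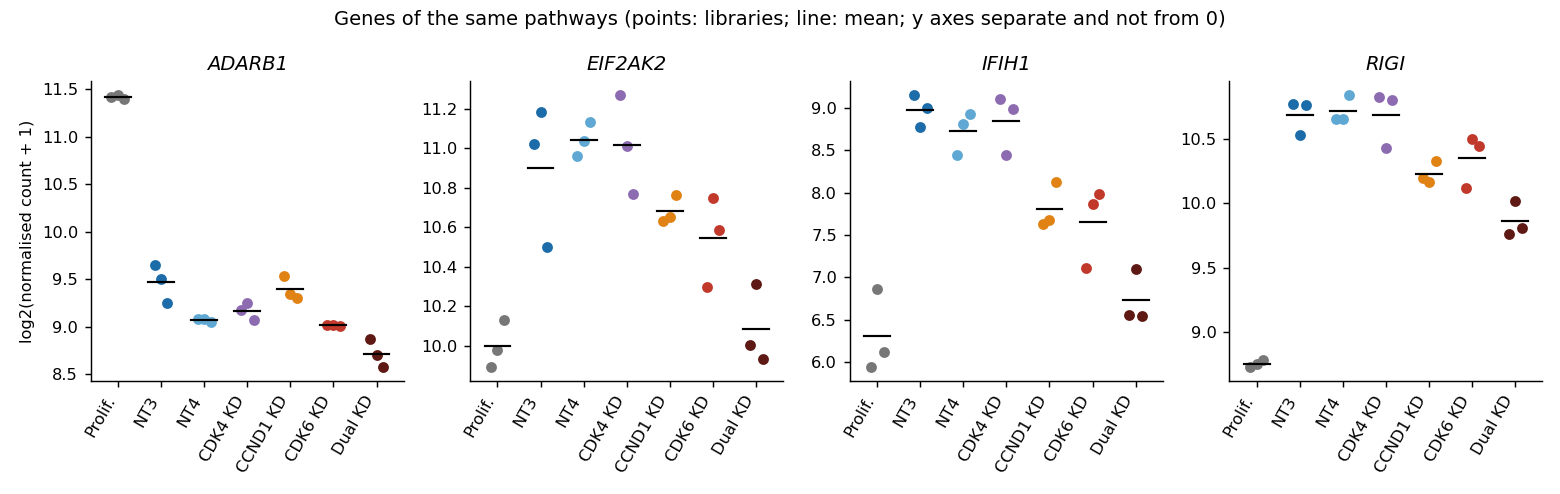
Points show log2(normalised count + 1) of ADARB1, EIF2AK2, IFIH1 and RIGI in each library and lines the group means, with separate y axes that do not start at 0. ADARB1 is highest in proliferating cells, where the 3 sensors are lowest on average, and the sensors are lower in the dual knockdown than in NT3 and NT4.

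Interferon transcripts themselves were at 0 or low. None of 6 interferon genes passed the filter, so none was tested. IFNB1 had 0 reads in the 9 proliferating, CCND1 and dual knockdown libraries and 0 to 6 reads in the 12 others, with a highest value of 7.28 normalised counts in the third NT3 library. IFNA1, chosen here after its values were seen, was at 1.75, 0 and 0 normalised counts in proliferating libraries, 3.11 to 6.07 in NT3, 8.90 to 11.7 in NT4 and 1.00107 to 5.52 in the dual knockdown. All control libraries were above the proliferating ones, at 3 to 12 reads each, and reads shared between the near-identical IFNA genes are uncertain. Of the transcription factors of the interferon response, 4 were higher in senescent controls, IRF1 by 0.91 ± 0.13, IRF9 by 1.83 ± 0.07 on the log2 scale, STAT2 by 0.74 ± 0.06 and IRF7 by 2.34 ± 0.63, with limma adjusted p-values of 3.72e-06, 7.77e-16, 7.58e-10 and 0.00243. IRF2 was lower (-0.34 ± 0.08, 0.000793) and IRF3 did not pass (-0.02, 0.835). IRF7 rested on 11 reads in proliferating cells and was not called after quantile normalisation (adjusted p = 0.144). In the dual knockdown IRF9 fell by 0.77 ± 0.07 (7.09e-09), IRF1 by 0.40 ± 0.13 (0.021) and IRF7, at a mean of 0.728 normalised counts, by 3.66 ± 0.63 (7.19e-05). STAT2 was at -0.22 ± 0.06 there (0.0061) and at -0.02 against NT4 alone (0.883). Of the 10 receptor and factor genes counted, 5 were higher and 2 lower in senescent controls (32.6% and 36.1% of all genes tested), 1 higher and 5 lower after CCND1 and likewise after CDK6 knockdown, 1 higher and 4 lower in the dual knockdown, and none passed after CDK4 knockdown. Of all genes tested, 16.7%, 21.1% and 22.5% were higher and 14.4%, 20.8% and 21.5% lower after CCND1, CDK6 and dual knockdown. After CDK4 knockdown 16% of all genes tested passed in either direction.

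The members shared their direction with other interferon-stimulated genes. Of 25 tested, 25 were higher in senescent controls, as were 32.6% of all genes tested, with a median log2 change of 4.02. CCND1 and CDK6 knockdown each lowered 24 (14.4% and 20.8% of all genes were lower) and raised 1, TRIM22 (16.7% and 21.1% higher), with medians of -1.0 and -1.36. The dual knockdown lowered 24, where 21.5% of all genes were lower, with a median of -1.90, and TRIM22 did not pass. CDK4 knockdown moved 0 of the 25 past the threshold by limma, where 16% of all genes tested passed in either direction. Between the controls, 10 of these genes were lower and 1 higher in NT4 than in NT3, MX1 by -0.92 ± 0.25 (adjusted p = 0.00952) and RSAD2 by -0.98 ± 0.30 (0.017), against 13.1% lower and 14.7% higher among all genes. RSAD2, an antiviral enzyme and the non-member most like OAS1 and OAS2, changed by 7.68 ± 0.26 in senescent controls (limma adjusted p = 1.75e-16) and by -3.75 ± 0.26 in the dual knockdown (1.63e-10). The list was chosen with earlier results of these data known, and its overlap with the members' direction was not tested.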

How the data were processed

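The deposited table holds normalised counts, a signal that the authors made by dividing the reads of each gene by 1 size factor per library; per the submitters' processing notes the tools were Trimmomatic 0.38.1, FastQC 0.74, HISAT2 2.2.1, featureCounts 2.0.3, MultiQC and DESeq2 2.11.40.8, with build hg38/GRCh38. The annotation used for counting, its use of strand and its handling of shared reads are not given in the sources used here; reads shared by the related OAS genes are therefore uncertain. Dividing by the smallest step of each library gave whole reads (within 0.1) for 100% of values; 12892442 to 21822152 reads per library set the precision. Values were analysed as log2(value + 1) in limma 3.58.1 (R 4.3.3) with 7 group means, trended empirical Bayes, two-sided tests and Benjamini-Hochberg adjustment over the 11579 genes that reached 10 in 3 or more libraries, threshold 0.05. The 7 comparisons and all 21 pairs of groups were computed. Overlap between libraries is given as description, since the share of all genes without overlap was not counted. Alternatives were pseudocounts of 0.1 and 10, other filters and scalings, edgeR 4.0.16 and DESeq2 1.42.0 on recovered reads, either control alone and leaving out libraries. The fit was tested on simulated data. Gene lengths come from GENCODE, promoters from RefSeq. The highest Entrez gene ID in the deposited table was 140467. Genes with higher IDs are thus absent from the lists, the neighbours and the shares of all genes. Columns of the table name the group but no replicate, so library numbers follow column order. Every member is named in every comparison; of the pathway lists, counts of all genes and a fixed set of genes are given, with some results not reported here, and the neighbours with values and the interferon-stimulated examples were picked after their values were seen. The members and lists were chosen with earlier results of these data known.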

Additional observations from a re-analysis of the deposited data

How the results depend on the processing

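The counts of members called for the senescent controls, the CDK4, CDK6 and dual knockdowns were within 1.5 times the stated count in every setting run. OASL was not tested where a mean of at least 100 was required. For NT4 against NT3 (0 of 5), a pseudocount of 10 called 2, edgeR 3, DESeq2 2 and a fit limited to the 2 groups 1; without 1 library the count was 0 to 1. CCND1 knockdown called 3 to 5 without 1 library, 3 without its first. For the departure from additivity in the dual knockdown (0 of 5), edgeR called 3, DESeq2 2, NT3 alone 1 and NT4 alone 1, and leaving out 1 library gave 0 to 2. Totals over all genes follow below for some settings and are not reported here for DESeq2. The pairs called for OAS2 fell from 17 to 11 with a pseudocount of 0.1. Shares kept moved with the control: NT4 alone gave 102.9% (CDK4) and 36.4% (CCND1) for OAS1, 116.8% (CDK4), 40.2% (CCND1) and 11.7% (dual) for OAS2, and 90.2% (CDK4) and 64.6% (CCND1) for OASL; NT3 alone gave 7.22% for OAS2 (dual) and 57.8% for OASL (CDK4). Median centring, which moved the median of all genes by 0.11 on the log2 scale in the senescent comparison, turned the share of OAS3 kept after CDK6 knockdown to 1.69%, and no member changed direction in a called comparison under either scaling.

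Log2 changes reversed only where they were not called, STAT2 after CDK6 knockdown excepted (0.036 against NT4 alone). These were the departure of OASL with NT3 alone (0.018); CDK4 knockdown against NT4 alone for OAS1 (0.030), OAS2 (0.21) and ADAR (-0.0011), ADAR also without the third NT3 or first CDK4 library (-0.032 to 0.073 over libraries left out) and OAS2 without the second CDK4 library (-0.25 to 0.071); NT4 against NT3 for OAS3 without the third NT3 or second NT4 library (-0.23 to 0.23) and for ADAR without the third NT3 (-0.061 to 0.15); and ADARB1 after CCND1 knockdown with NT3 alone (-0.075). The cause was not tested. On recovered reads edgeR called 3227 genes for NT4 against NT3 (limma 3216), 3617 for CCND1 (3594), 1934 for CDK4 (1854) and 765 for the departure (735). Fits limited to the groups compared called 976, 2285, 798 and 394 in that order. NT3 alone called 2962 for CDK4 and 1899 for the departure, and NT4 alone 2235 for CCND1 and 455 for the departure. Without 1 library the counts ran from 1062 to 2692 for CDK4 and from 442 to 1438 for the departure.

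No fit blocked on the labels' replicate numbers could be made, because the columns of the table carry none. A replicate block by runs of consecutive library codes in the column names, chosen after seeing the data and for irradiated libraries only, called 2 members (OAS1 and OAS3) in the departure and changed no other call of the members. Deviations of libraries in the same run correlated between -0.11 and 0.10 (median 0.04) and in different runs between -0.14 and 0.16 (median -0.02). Depth limited OAS1, OAS2 and OASL in proliferating cells and OAS1 in the dual knockdown (86 reads).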
